A study of Oryza sativa with 3 samples.

Results

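The plasma membrane proton ATPases of rice (Oryza sativa) are described here in roots exposed to vanadate or to water. They were taken as 8 loci listed by ID, namely A1 (Os03g0689300), A2 (Os07g0191200), A3 (Os12g0638700), A4 (Os05g0319800), A6 (Os02g0797300), A7 (Os04g0656100), A8 (Os03g0100800) and A10 (Os06g0181500), with every array probe that carries one of these IDs in its name. This gave 22 probes of 42418 gene probes on the array, and 8 loci of 29859. This rule uses no measured value. The vanadate group was roots of 6-day-old dark-grown seedlings of cultivar TN67 exposed to 1 mM vanadium, and the other group was roots of the same cultivar exposed to water. In both, RNA of 1 h and 3 h was pooled, so the times cannot be separated. Each of 3 arrays held 1 biological replicate, with vanadate RNA in Cy5 and water RNA in Cy3, and the dyes were exchanged on 0 arrays, so a dye effect cannot be told apart from an effect of the treatment.

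Plasma membrane H+-ATPases are P-type pumps that spend ATP to move protons out of the cell. The gradient they build drives the uptake of nitrate, phosphate, potassium and other solutes into root cells through coupled carriers and channels, and it acidifies the cell wall during growth. During each cycle a P-type pump forms a phosphorylated intermediate, and vanadate, an analogue of phosphate, blocks that step in the protein. Activity is controlled largely after translation: phosphorylation near the carboxyl end lets 14-3-3 proteins bind and keeps the pump active. In rice, raised levels of A1 are known to increase ammonium uptake by roots and the opening of stomata. The arrays measured transcript only. The first digits of the locus IDs place the members on chromosomes 2, 3, 4, 5, 6, 7 and 12. No coordinates and no probe sequences were used here.

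In the arrays as a whole, 22150 genes were tested, of which 6443 were called higher in vanadate and 4573 lower. A call means a limma adjusted p under 0.05 over all tested probes. The split was 4997 higher and 6862 lower with the scanner software's processed signals, where the median log2 ratio of all genes was -0.11 in place of 0.02, and 5077 and 6962 in the authors' value table. Negative control spots read 89 to 160 in the water channel and 62 to 68 in the vanadate channel, so a dim probe sat on unequal background in its channels. Root markers fixed by locus ID (RCc3, Lsi1 and Lsi2) cleared the scanner's background test (well above background) in each channel of every array for 3 of 3 loci by their brightest probe, against 0 of 2 leaf markers (RbcS and Lhcb). A dimmer RbcS probe, AK121444, did so too, and the Lhcb probe read 536 in water on replicate 3 against 6.70 and 8.26 on replicates 1 and 2 (processed signal). The summed processed signal of the leaf markers was 51.1 to 632 in water and 42.6 to 152 in vanadate, with the highest in water of replicate 3, and its part in the values of replicate 3 was not tested. Among 3 markers of the endodermis and exodermis, Lsi1 and Lsi2 were called lower and CASP1 higher, and their summed processed signal was 14372 to 17558 in water and 3188 to 6697 in vanadate. In water that sum was mostly Lsi1, at 12548, 13984 and 15243 on replicates 1, 2 and 3, so it does not stand for the 3 markers alike. The part of endodermal and exodermal cells in the values below was not tested, and fewer cells of a type cannot be told from less RNA per cell in whole roots.

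Of the 14 tested probes of the family 0 differed by 2-fold or more, and 9.66% of all tested probes did. With only 14 probes, which share RNA within a locus, this count does not set the family apart from the array. The median absolute log2 ratio of the tested loci was 0.36 against 0.27 over all genes. Of the 8 loci, 6 had a tested probe, and with each locus represented by its brightest tested probe, 2 fell (A10 and A1), 0 rose and 4 were not called (A2, A3, A4 and A7). Across the array 49.7% of tested genes were called in either direction, 29.1% higher and 20.6% lower. At an unadjusted p under 0.05 the limma fit gave 4 of the 6 loci lower and 1 higher. The shares above are at the adjusted threshold, and no share of all genes is given at the unadjusted one, so this count has no base rate. The median log2 ratio of the 6 loci was -0.30, against 0.02 over all genes. By array the median of the loci was -0.08, -0.26 and -0.30 on replicates 1, 2 and 3.

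Counted by probe, 14 of the 22 were tested. Of these 2 rose, 3 fell and 9 were not called, where 49.3% of all tested probes were called in either direction, 28.4% higher and 20.8% lower. The 14 probes had the same sign on all arrays in 10 cases, or 71.4%, close to the 72.8% of all tested probes. The median log2 ratio of the 14 was -0.04, near that of all probes at 0.02. Under median centring in place of loess 0 rose and 3 fell, and with outlier-flagged spots kept 2 rose and 6 fell of 18. Of the untested probes, 4 were dim and 4 were bright probes of A3 and A7 whose spot on replicate 3 carried a non-uniformity flag in the vanadate channel. Probes of a locus share their RNA and are not replicates.

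**Figure D1:**
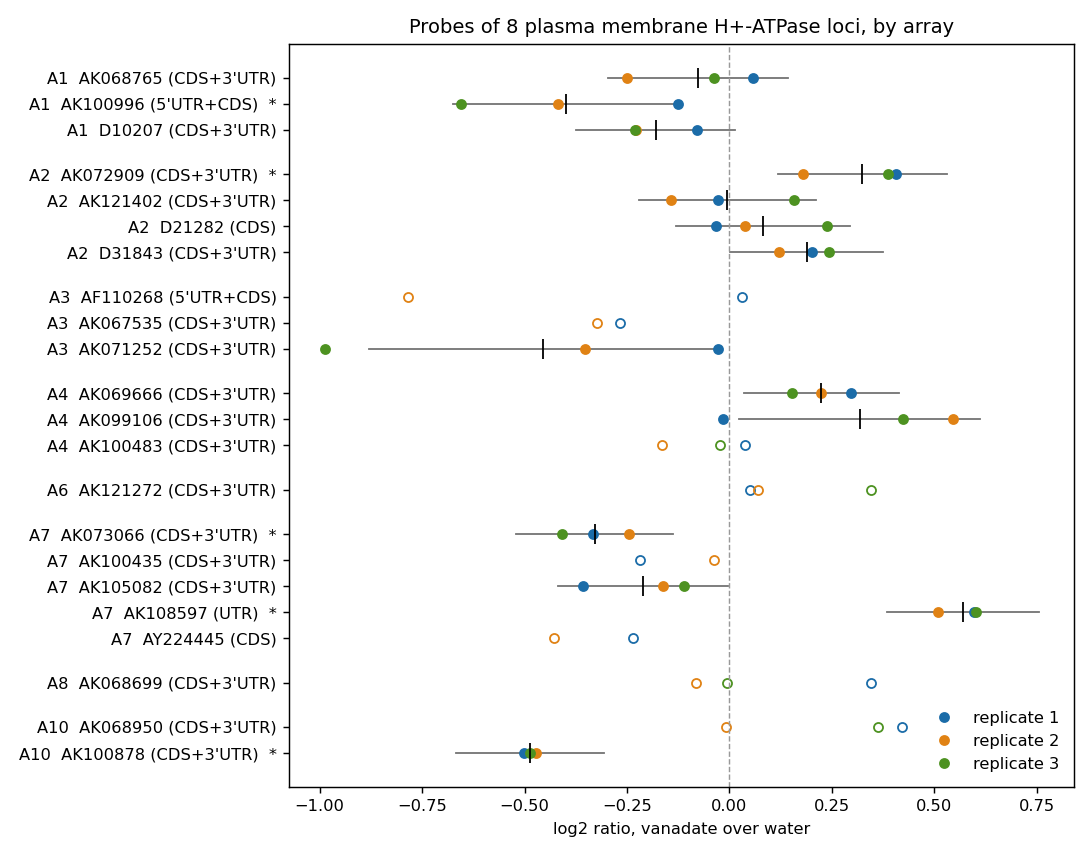
Log2 ratio of vanadate over water for each of the 22 probes, by array (coloured points), with the mean (vertical tick) and its 95% interval before adjustment (line) for the 14 tested probes. Open circles are untested probes, asterisks mark the 5 called probes, and the probe of A7 named UTR lies apart from the other A7 probes, at 0.57.

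A10 showed the most even fall. Its probe to cDNA AK100878, named for coding sequence and 3' UTR, had log2 levels of 10.89, 10.93 and 10.16 in water on replicates 1, 2 and 3. The levels in vanadate were 10.39, 10.46 and 9.67. Vanadate was below water on every array, although the groups overlapped because replicate 3 was lower in both channels. The log2 ratios were -0.50, -0.47 and -0.49, a mean of -0.49 ± 0.01 (SD, n = 3), or 1.40-fold lower (adjusted p = 0.00271 in limma). This call was also made without each replicate in turn, but not when the channels were treated as unpaired samples (adjusted p = 0.275). With the processed signals the log2 ratio was -0.66, and -0.54 relative to the median of all genes. The other A10 probe, AK068950, was well above background on 0 arrays in either channel, with log2 ratios of 0.42, -0.01 and 0.36, so it gave no measure of A10.

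A1, the member whose level is known to alter ammonium uptake, fell by its brightest probe. That probe, AK100996, is named for 5' UTR and coding sequence and had log2 levels of 8.47, 8.96 and 9.12 in water on replicates 1, 2 and 3. In vanadate they were 8.34, 8.54 and 8.46. Every array was lower in vanadate, with overlap between the groups, and the fall differed widely in size between arrays. The log2 ratios were -0.13, -0.42 and -0.66, a mean of -0.40 ± 0.27 (SD, n = 3), or 1.32-fold lower (adjusted p = 0.0279 in limma). Without replicate 2 the adjusted p was 0.0763, and without replicate 3 it was 0.0798 with a log2 ratio of -0.27. As the mean over its probes A1 was at -0.22 and not called (adjusted p = 0.0769), nor was it with unpaired channels (adjusted p = 0.174). With the processed signals the log2 ratio was -0.77, and -0.66 relative to the median of all genes. The 2 other A1 probes, both named for coding sequence and 3' UTR, were dim and were not called, at -0.18 (D10207, 95% interval -0.37 to 0.01) and -0.08 (AK068765, 95% interval -0.30 to 0.14). With the processed signals D10207 was at -0.96, and -0.85 relative to the median of all genes, still uncalled (adjusted p = 0.0852). The signals of these probes lay near the unequal negative-control background, and D10207 was well above background in vanadate on only 2 arrays.

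**Figure D2:**
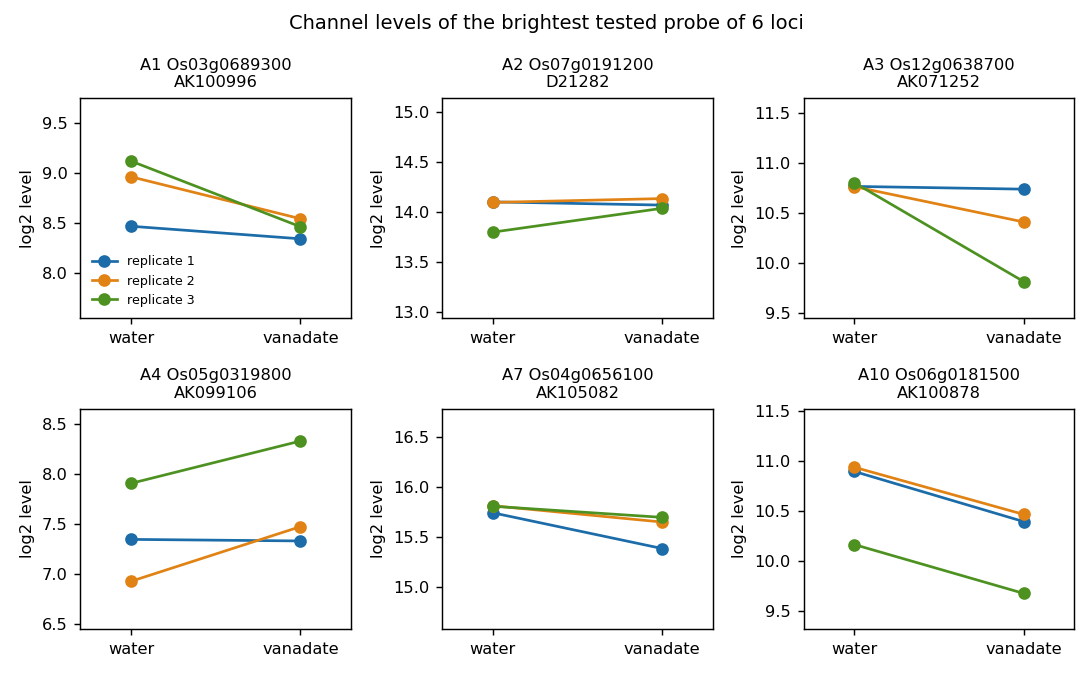
Log2 level in the water and vanadate channels (after loess and between-array scaling) of the brightest tested probe of 6 loci, with 1 line per array. Every panel spans the same number of log2 units around its own mean, so slopes can be compared and levels cannot. A10 falls on all lines in parallel, while A3 falls from 10.81 to 9.82 on replicate 3 and from 10.77 to 10.74 on replicate 1.

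A7 had the most probes, and they disagreed. Its brightest tested probe, AK105082, had log2 levels of 15.74, 15.81 and 15.80 in water on replicates 1, 2 and 3, and of 15.38, 15.65 and 15.69 in vanadate. All vanadate values lay below all water values, by a small step. The mean log2 ratio was -0.21 ± 0.13 (SD, n = 3), which was not called (adjusted p = 0.0854 in limma, 95% interval -0.42 to -0.003 before adjustment). A second probe, AK073066, is, like AK105082, named for coding sequence and 3' UTR. AK073066 had log2 levels of 14.57, 14.55 and 14.79 in water and of 14.24, 14.31 and 14.38 in vanadate, again without overlap. It fell 1.26-fold, at a log2 ratio of -0.33 ± 0.08 (SD, n = 3, adjusted p = 0.0154 in limma). Its adjusted p rose to 0.0549 when replicate 2 was left out, to 0.224 under median centring and to 0.107 with unpaired channels, which ends the call each time. The 2 A7 probes with a flagged spot had log2 ratios on replicates 1 and 2 of -0.23 and -0.43 (AY224445, coding sequence) and of -0.22 and -0.04 (AK100435, coding sequence and 3' UTR). With the flagged spots kept, AY224445 was called lower at -0.42 ± 0.19 (SD, n = 3, adjusted p = 0.0122 in limma) and AK100435 was not called at -0.16 (adjusted p = 0.145). Thus 4 of the 5 A7 probes had a negative mean.

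The exception in A7 was AK108597, the only member probe named for UTR alone. Its log2 levels were 8.91, 9.17 and 9.77 in water on replicates 1, 2 and 3, and 9.51, 9.68 and 10.37 in vanadate. Each array rose by about the same step, while the groups overlapped because replicate 3 was higher in both channels. The log2 ratios were 0.60, 0.51 and 0.60, a mean of 0.57 ± 0.05 (SD, n = 3), or 1.48-fold higher (adjusted p = 0.00156 in limma). The call was also made without each replicate in turn. Median centring ended it (log2 ratio 0.43, adjusted p = 0.0508), as did unpaired channels (adjusted p = 0.212). The array therefore called 1 probe of A7 higher and 1 lower. Such a split occurred in 1 of the 4 members with at least 2 tested probes, and in 106 of 5964 genes with at least 2 tested probes, or 1.78%. With so few members this gives no rate for the family, and the genes were not matched to them for number of tested probes. As the mean over its tested probes, A7 was at a log2 ratio of 0.01 (adjusted p = 0.912). Whether AK108597 reports a transcript form of A7 or another transcript was not tested, and its difference from the other A7 probes was not tested either.

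A2 was not called by its brightest probe. That probe, D21282, named for coding sequence, had log2 levels of 14.10, 14.10 and 13.80 in water on replicates 1, 2 and 3 and of 14.07, 14.14 and 14.04 in vanadate. The groups overlapped, and the mean log2 ratio of 0.08 ± 0.14 (SD, n = 3) was not called (adjusted p = 0.469 in limma). Its 95% interval ran from -0.13 to 0.29. A dimmer probe, AK072909, had log2 ratios of 0.41, 0.18 and 0.39 and was called higher, 1.25-fold, at 0.32 ± 0.13 (SD, n = 3, adjusted p = 0.0209 in limma). The adjusted p was 0.0791 when replicate 1 was left out and 0.0539 when replicate 3 was left out. It was 0.151 under median centring and 0.181 with unpaired channels, so the call depends on these choices. The 2 remaining A2 probes were not called, at 0.19 (D31843) and -0.005 (AK121402), and the sign of the latter turned under 4 alternatives. Mean log2 intensity was 14.04 for D21282, against 7.63 for AK072909, 7.87 for D31843 and 8.06 for AK121402. Whether D21282 and the far dimmer probes read the same transcript was not tested.

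A3 gave 3 probes with negative mean ratios, and its values differed most between arrays. The tested probe AK071252 had log2 levels of 10.77, 10.77 and 10.81 in water on replicates 1, 2 and 3, and of 10.74, 10.41 and 9.82 in vanadate. Water was nearly the same on all arrays, and vanadate ranged from almost no fall to a fall of about 1 log2 unit. The log2 ratios of -0.03, -0.35 and -0.99 gave a mean of -0.46 ± 0.49 (SD, n = 3), which was not called (adjusted p = 0.0715 in limma). Without replicate 1 it was called lower at -0.67 (adjusted p = 0.0317), and without replicate 3 it was at -0.19 (adjusted p = 0.210). With slide as a block it was called lower at -0.59 (adjusted p = 0.00131). That fit takes its spread from replicates 1 and 2 alone and gives replicate 3 the weight of both together, so its p-value leaves out the distance of replicate 3. The 2 flagged probes had log2 ratios on replicates 1 and 2 of -0.27 and -0.32 (AK067535) and of 0.03 and -0.78 (AF110268, 5' UTR and coding sequence). With the flagged spots kept, both were called lower, at -0.43 ± 0.24 (SD, n = 3, adjusted p = 0.0173 in limma) and at -0.57 ± 0.53 (SD, n = 3, adjusted p = 0.0434). AK067535 was also called lower without replicate 3 (log2 ratio -0.30, adjusted p = 0.0410), where no flag touches it, so of the 3 A3 probes it was the one called lower on the unflagged arrays alone.

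A4 was the tested member with a positive mean on both tested probes. AK099106 had log2 levels of 7.35, 6.93 and 7.91 in water on replicates 1, 2 and 3 and of 7.33, 7.48 and 8.33 in vanadate. The groups overlapped, with replicate 1 level and the other arrays higher in vanadate. Its log2 ratio of 0.32 ± 0.29 (SD, n = 3) was not called (adjusted p = 0.0707 in limma), but was without replicate 1, at 0.48 (adjusted p = 0.0155), and with slide as a block, at 0.34 (adjusted p = 0.0406). The slide fit has the limit given for A3. AK069666 had log2 ratios of 0.30, 0.22 and 0.15, a mean of 0.22 ± 0.07 (SD, n = 3), which just missed the threshold (adjusted p = 0.0539 in limma). With the processed signals AK069666 was called higher, at 0.43 (adjusted p = 0.0451). As the mean over its tested probes A4 was called higher at 0.27 (adjusted p = 0.0345). Both probes were well above background in water on 2 arrays and in vanadate on 3, and the locus's remaining probe, AK100483, on 0 arrays in either channel.

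A6 and A8 had 1 probe each and neither could be tested. The A6 probe, AK121272, was well above background on 0 arrays in either channel, with log2 levels of 6.61, 6.38 and 6.32 in water and of 6.67, 6.45 and 6.66 in vanadate on replicates 1, 2 and 3. The A8 probe, AK068699, was well above background on 1 array in vanadate and on 0 in water, with log2 levels of 6.83, 7.02 and 6.80 in water and of 7.17, 6.94 and 6.79 in vanadate. These measured levels lie near the background and are not evidence that the genes were silent.

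**Figure D3:**
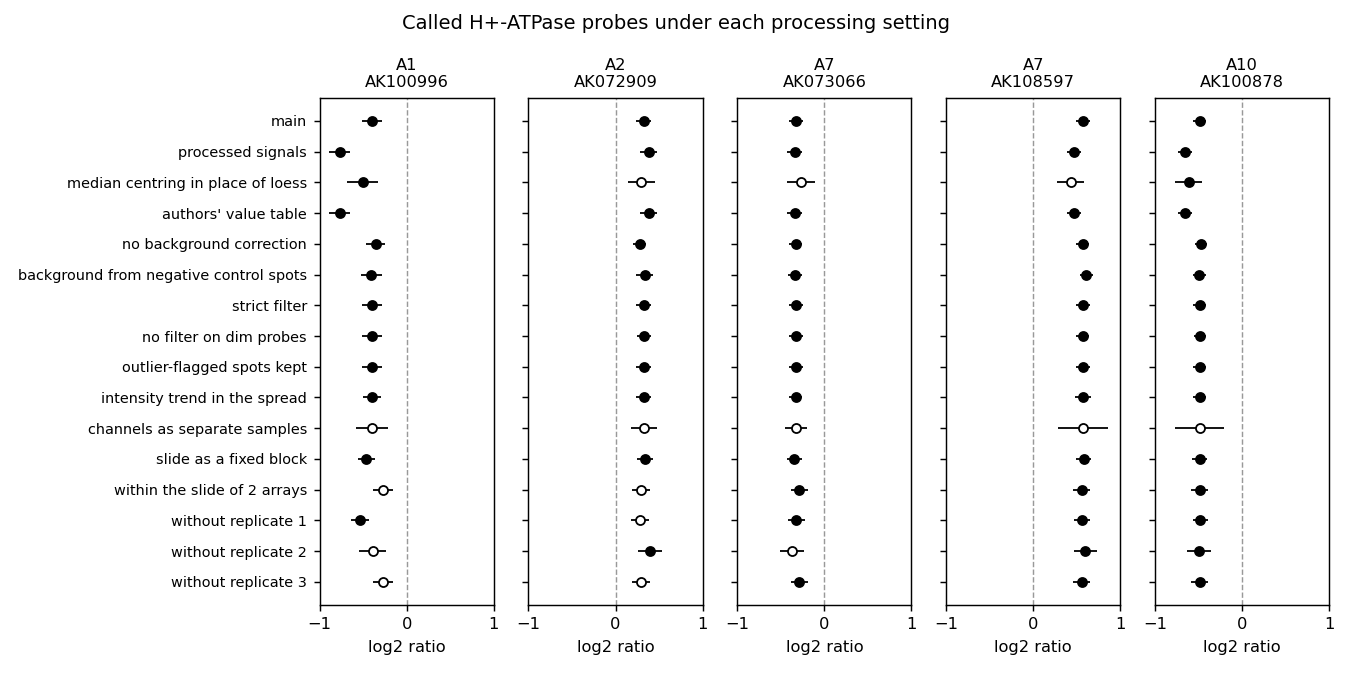
Log2 ratio ± SE of the 5 called probes under each probe-level processing setting, filled where the adjusted p is under 0.05. No point crosses 0. The A10 probe is open under 1 setting, channels as separate samples, while the A1 and A2 probes are also open when replicate 3 is left out.

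The pump's partners and the proton pumps of the vacuole, listed by locus ID from background knowledge, were set beside the family. Of 8 14-3-3 loci, all tested by their brightest probe, 2 fell, 0 rose and 6 were not called, with a median log2 ratio of -0.15. The called share was 25%, below the 49.7% of all tested genes. At an unadjusted p under 0.05 the limma fit gave 3 lower and 1 higher, again without a share of all genes at that threshold. GF14f (Os03g0710800) fell 1.23-fold, with log2 ratios of -0.32, -0.30 and -0.28 on replicates 1, 2 and 3 (mean -0.30 ± 0.02, SD, n = 3, adjusted p = 0.0185 in limma). GF14c (Os08g0430500) fell 1.20-fold at -0.26 ± 0.04 (SD, n = 3, adjusted p = 0.0311 in limma). Not all probes of these loci were called: the second tested GF14f probe was at 0.02 and the 4 other tested GF14c probes at -0.10 to 0.03, and the difference between probes was not tested. By probe the 14-3-3 list had 3 called higher and 2 lower of 27, or 18.5% called against 49.3% of all tested probes. The rises, named after their values were seen, were in GF14e (Os02g0580300) at 0.59 and 0.45 and in GF14d (Os11g0546900) at 0.24. The GF14e rises came from dim probes, at mean log2 intensities of 8.89 and 7.37. The brightest probe of GF14e was at -0.20 and that of GF14d at 0.21, both uncalled. The uncalled member of highest intensity, GF14b (Os04g0462500), was at 0.10 (95% interval -0.09 to 0.30). Both 14-3-3 falls depend on the scaling: under median centring limma called 0 loci (0 also at an unadjusted p under 0.05) and GF14c was at 0.06. Leaving out replicate 2 gave 0 calls as well (0 at an unadjusted p under 0.05), as did leaving out replicate 1 (3 lower at an unadjusted p under 0.05).

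Vacuolar pyrophosphatases and the V-ATPase move protons into the vacuole and are not P-type pumps. Of 8 such loci, 1 fell, 1 rose and 6 were not called, with a median log2 ratio of -0.21. In all, 25% of these loci were called, against 49.7% of all tested genes. By probe, 4 were called higher and 2 lower of 17, with a median log2 ratio of 0.01. That is 35.3% of the probes, against 49.3% of all tested probes. The 4 rises include AK064361 and AK102146 of Os02g0802500, so the count and share carry the limits given for them below. The pyrophosphatase Os06g0178900 fell 1.59-fold, with log2 ratios of -0.55, -0.53 and -0.94 on replicates 1, 2 and 3 (adjusted p = 0.00298 in limma), and its second probe fell by 0.73 on the log2 scale (adjusted p = 0.00213). The pyrophosphatase Os01g0337500 rose 1.53-fold, with log2 ratios of 0.55, 0.38 and 0.91 (adjusted p = 0.00616 in limma). With unpaired channels Os01g0337500 was not called (adjusted p = 0.138). The uncalled member of highest intensity was the V-ATPase subunit B gene Os06g0568200, at -0.23 (95% interval -0.45 to -0.02 before adjustment, adjusted p = 0.0726). One more pyrophosphatase, Os02g0802500, was singled out after its values were seen, since its probes disagreed: the coding probe was at 0.05, with log2 ratios of -0.36, -0.20 and 0.69, while 2 probes named for coding sequence and 3' UTR had log2 ratios of 2.50, 2.47 and 3.50 (AK064361) and of 1.99, 2.39 and 3.21 (AK102146). Their water channel was well above background on 2 arrays and 1 array, and AK102146 passed the filter through the vanadate channel alone. Both sets of ratios are therefore given without a test, although the count by probe above includes them. Probes of the pyrophosphatase Os06g0644200, also named after its values were seen, disagreed as well. Its brightest tested probe was at -0.19 and uncalled, AK099807 was at 0.30 and uncalled, and AK107838 was called higher at 0.67 (adjusted p = 0.00393 in limma).

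**Figure D4:**
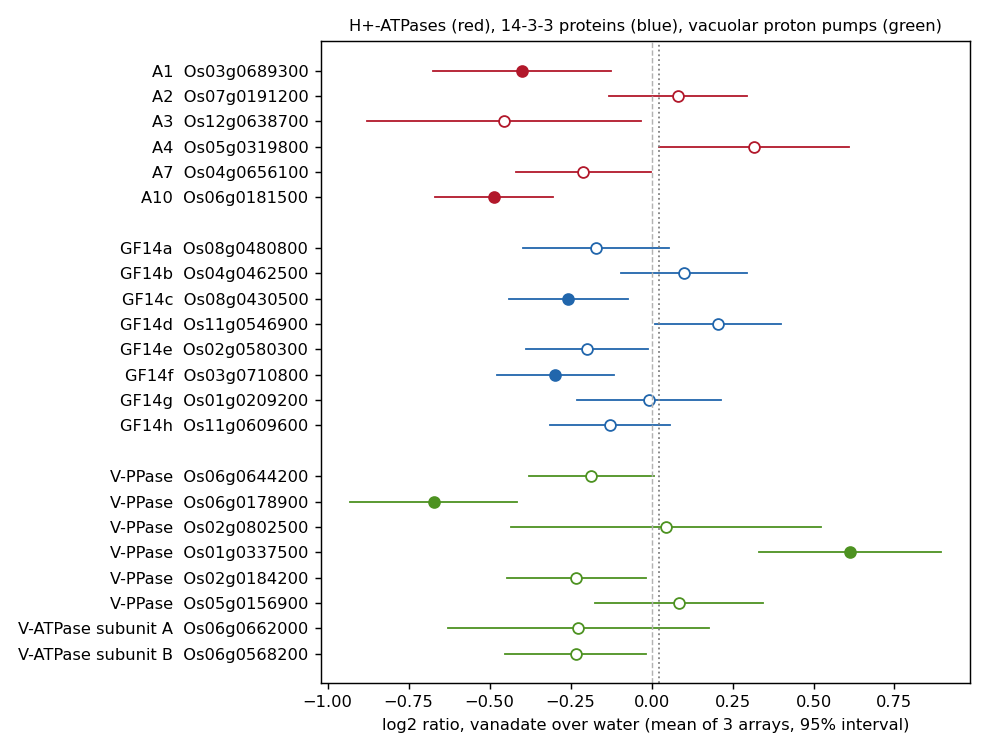
Mean log2 ratio of 3 arrays with its 95% interval before adjustment for the brightest tested probe of 6 H+-ATPase loci, 8 14-3-3 loci and 8 vacuolar pump loci, filled where called. The dotted line is the median of all genes, 0.02. The called H+-ATPase loci, A1 and A10, lie at -0.40 and -0.49.

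The genes whose ratios lay nearest to those of A1 over the 3 arrays were Os03g0128200, Os08g0162000 and Os04g0103300. Their Euclidean distances to A1 over the 3 log2 ratios were 0.025, 0.026 and 0.026. Among the 22144 genes compared, 36 lay within 0.1. This describes 3 values per gene, and no such count was made for other genes, so it shows no link of these genes to A1.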

How the data were processed

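Per the file headers, the scanner files were written by Agilent Feature Extraction 10.7.1.1 and hold intensity values of each spot. Median intensity columns for spot and local background are raw, per the file headers, whereas in the processed intensity the software has removed background and balanced the dyes. A log10 ratio, which the software derives from processed signals per the file headers, was left unused. The authors' deposited table gives log2 ratios. On each array at least 99.9% of its matched probes lay within 0.001 of log2 processed red over green, which sets the direction as vanadate over water. Its columns are uncentred, with medians of -0.19, -0.21 and -0.05.

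Here median signals were corrected with normexp (offset 50) and normalized by loess within arrays in limma 3.58.1 under R 4.3.3, with control spots at weight 0. Control spots and outlier-flagged spots (172, 129 and 958 of 43144) were then left out and spots of a probe averaged. Probes with a value on all 3 arrays and well above background in a channel on at least 2 arrays were tested, 31159 in all. Mean log2 ratios were compared with 0 by lmFit and eBayes, and p-values were adjusted over every tested probe (Benjamini-Hochberg). The tested probe with the highest mean intensity stands for its locus. Levels are log2 channel values after loess and Aquantile scaling.

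The code was tested on simulated data. Replicates 1 and 2 shared a slide, per the file headers. Background, scaling, filter, flags, slide, pairing of channels and each replicate were varied. The labels call the arrays biological replicates without saying how plants were divided, so p-values measure the spread between these samples. Their number limits the precision. Members and lists were chosen with earlier results of these data known. Every member and probe is named. From each other list the rule took the largest called rise and fall and the brightest uncalled gene, and the 3 genes nearest to A1. The reference table matched 0 of the 8 locus IDs, so names rest on the list of members and on background knowledge.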

Additional observations from a re-analysis of the deposited data

How the results depend on the processing

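Over 213 values of the 14 tested H+-ATPase probes under the alternatives, 179 kept direction and side of the threshold, 6 turned sign without a call, 16 lost a call and 12 gained one. The 5 called probes kept their direction under each alternative run. These alternatives are not independent. The fit within the slide of replicates 1 and 2 is the fit without replicate 3, and the authors' value table nearly repeats the processed signals. Changing the filter, keeping flagged spots, an intensity trend and unpaired channels leave the log2 ratio of a tested probe as it was. Under those settings its direction could not turn. The number of H+-ATPase loci called, 2 as reported, was 0 with channels as separate samples (no replicate block; 0 also at an unadjusted p under 0.05 in limma), 4 with slide as a fixed block, and 1 to 4 with a replicate left out. The number of H+-ATPase probes called, 5 as reported, was 0 with channels as separate samples (1 lower at an unadjusted p under 0.05), 3 under median centring, 8 with flagged spots kept and 8 in the authors' value table, and 3 to 6 with a replicate left out. It was 3 without replicate 2. Of the 14-3-3 loci, 2 as reported, 0 were called under median centring and with channels as separate samples (0 at an unadjusted p under 0.05 in both), 1 as the mean over probes (a rise, with 0 falls), 1 within the slide of replicates 1 and 2, and 0 to 1 with a replicate left out. Of the vacuolar pumps, 2 as reported, 4 were called as the mean over probes, 4 with an intensity trend, 1 with channels as separate samples, and 2 to 4 with a replicate left out. The 4 as the mean over probes include Os02g0802500, whose mean of 1.80 takes in AK064361 and AK102146. GF14c (AF451190) turned to 0.058 under median centring, and Os06g0644200 turned from -0.19 to 0.26 as the mean over its probes. The causes were not tested. The fit with channels as separate samples drops the pairing of channels within an array. With slide as a block the spread rests on replicates 1 and 2 alone, and replicate 3 weighs as much in the mean as both of them together. Signal over background limits A4, A6, A8 and the dim probes of A1, A2 and A10.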
